A study of Homo sapiens with 4 samples.

Results

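NF-kB is a family of dimeric transcription factors whose subunits are encoded by 5 genes, NFKB1, NFKB2, REL, RELA and RELB. The 10 genes described here are these 5 and a set of feedback and adaptor genes, NFKBIA, TNFAIP3, TNFAIP2, BIRC3 and TRAF1, each found by its symbol among the 27800 symbols of the expression table. The RNA came from the human cell line MOLM-13, a monocytic acute myeloid leukaemia with a KMT2A-MLLT3 fusion, after transduction with lentivirus for CRISPR-Cas9. Of the 4 libraries, 2 received a vector labelled EV and 2 a vector with a guide against KAT6A, a histone lysine acetyltransferase also called MOZ (sgKAT6A). All 4 share the cell line and, per the labels, lentiviral delivery of a CRISPR-Cas9 vector. The content of EV, the number of guides, the harvest time and whether cells were cloned or pooled were not given in the sources used here. The labels do not say that libraries of a group came from separate cultures, so the p-values reflect the spread among these libraries alone, which may be technical.

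In the canonical pathway, receptors for tumour necrosis factor, interleukin-1 and bacterial products activate the IkB kinase (IKK), which marks the inhibitor encoded by NFKBIA for destruction and releases dimers such as that of the NFKB1 and RELA products. In the non-canonical pathway, the kinase encoded by MAP3K14 triggers processing of the NFKB2 product, the partner of RELB. Released dimers bind kB sites in DNA and switch on genes of inflammation and survival, among them NFKB2, RELB and NFKBIA themselves and the gene of the ubiquitin-editing brake TNFAIP3. The pathway is active in monocytes and macrophages and in many myeloid leukaemias.

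Promoter sequence is shown first because several of these genes are known targets of the factor they encode or restrain. Windows from 250 bases before to 50 bases after each annotated start were taken from RefSeq on GRCh38.p14 and searched on both strands for the kB consensus motif. RELB was not among the 9 members matched by symbol. At least 1 window held a match for 6 of these 9 genes, against 13.3% of 27305 genes in the promoter table and 17.0% of the 9044 of them that were tested for expression. By window, 11.3% of 35116 held a match. A gene with several windows has more chances to hold a match, and NFKB1, NFKB2, RELA and TRAF1 had more than 1 window. Stretches are written 5′ to 3′ in the direction of transcription, with the bases of the match in capitals. They are kept to 30 bases or fewer where an exon of GENCODE 29 on GRCh38 overlaps, and run to 50 bases otherwise.
NFKB1, chr4:102501300-102501329, plus strand: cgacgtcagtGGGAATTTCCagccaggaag
NFKB2, chr10:102394462-102394490, plus strand: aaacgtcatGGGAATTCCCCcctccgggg
NFKB2, chr10:102395674-102395703, plus strand: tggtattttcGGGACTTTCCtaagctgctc
REL, chr2:60881518-60881546, plus strand: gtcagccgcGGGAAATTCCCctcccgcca
NFKBIA, chr14:35404801-35404850, minus strand: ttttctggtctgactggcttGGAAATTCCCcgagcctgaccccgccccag
TNFAIP3, chr6:137867188-137867217, plus strand: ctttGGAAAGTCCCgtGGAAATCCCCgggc
BIRC3, chr11:102317265-102317314, plus strand: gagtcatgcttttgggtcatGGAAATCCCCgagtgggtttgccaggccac
BIRC3, chr11:102317329-102317378, plus strand: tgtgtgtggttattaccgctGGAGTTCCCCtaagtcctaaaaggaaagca

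The match ended 39 bases before the annotated start at 102501359 in NFKB1, 71 bases before the start in NFKBIA and 36 bases before it in REL. The window of the other NFKB1 start, at 102501934, held no match. TNFAIP3 held 2 matches, the nearer ending 45 bases before the start. NFKB2 has 3 annotated starts, and 2 of their windows held matches, from which the stretches above are examples. Those 2 are the downstream starts, at 102394578 and 102395705, and the window of the start at 102394110 held no match. In REL and in the first NFKB2 stretch, overlapping matches shifted by 1 base share most of their letters. The windows of RELA, TNFAIP2 and TRAF1 held no match, which says only that these letters are not in these windows. Whether the lack of a match bears on the level of RELA was not tested. NFKB1 and REL held a match and were also not over 2-fold higher in the number 2 library of both groups. The 70 bases before the RELA start at 65663857 are given as an example without a match. That start lies upstream of the GENCODE gene, which ends at 65663094 on the minus strand. The bases before the other RELA start, at 65662916, are not shown.
RELA, chr11:65663858-65663927, minus strand: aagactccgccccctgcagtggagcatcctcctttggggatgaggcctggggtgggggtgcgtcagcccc

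Expression was deposited as TPM, in which length-scaled abundances of a library sum to 1000000 and read depth is not kept. No counting interval or detection limit could be computed, and between 12082 and 12630 symbols reached 1 TPM in a library. The sgKAT6A and EV groups were compared with limma on log2(TPM + 1) over the 12603 genes that averaged 1 TPM or more. All 10 members passed this filter, BIRC3 narrowly with a mean of 1.01 TPM. Libraries of a group lay apart. On that scale, 820 genes differed more than 2-fold between EV 1 and EV 2 and 1085 between sgKAT6A 1 and sgKAT6A 2, against 484 between sgKAT6A 1 and EV 1 and 696 between sgKAT6A 2 and EV 2. In sgKAT6A 2 the 18S ribosomal RNA (RNA18SN5) took 340 TPM, far below the 10401 to 13751 TPM of the rest. KAT6A, the targeted gene, stood at 16.2 and 16.7 TPM in EV versus 12.2 and 10.8 TPM in sgKAT6A (adjusted p = 0.784 by limma). The myeloid genes CD33 and SPI1 were present in every library, at 99.2 to 115 TPM and 334 to 519 TPM, whereas CD2 of T cells, MS4A1 and JCHAIN of the B lineage and PF4 of megakaryocytes were listed at 0 in all 4. Other genes of the T and NK cell list were present. NKG7, a cytotoxic granule gene, stood at 93.1 and 151 TPM in EV versus 122 and 208 TPM in sgKAT6A, and CD3D at 7.17 and 10.5 TPM versus 5.65 and 11.5 TPM. Both were higher in both number 2 libraries, as 9 of the members were, and their part in the members' levels was not tested. CD3E, CD3G and CD8A reached at most 1.43 TPM, and the 6 genes of the list summed to 101 and 162 TPM in EV versus 128 and 221 TPM in sgKAT6A. The erythroid gene HBB was listed at 38.6 and 192 TPM in EV versus 188 and 61.1 TPM in sgKAT6A, an order of libraries that none of the 10 members shared.

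With the exception of REL, each of the 10 genes differed more between the libraries of either group than between the group means. NFKB2, RELB, NFKBIA, TNFAIP3, TNFAIP2 and TRAF1 were over 2-fold higher in the number 2 library than in the number 1 library of both groups, on the log2(TPM + 1) scale. These are 6 of 10 members, against 3.12% of all genes tested. Members were chosen with earlier results of these data known, which limits this and the later comparisons with all genes. RELA, encoding the main activating subunit, was at nearly the same level in every library. No member passed the test of sgKAT6A against EV, and the difference was at most 0.67 on the log2(TPM + 1) scale, which compresses low values such as those of BIRC3.

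**Figure D1:**
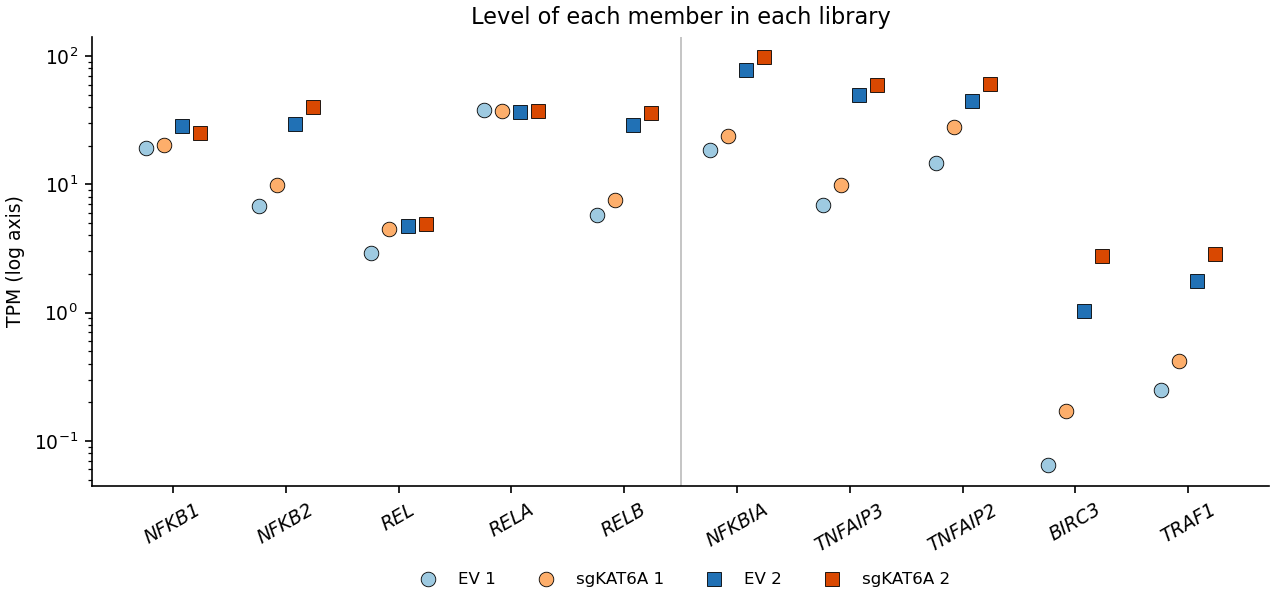
TPM of each of the 10 genes (horizontal axis, subunits left of the grey line) in each library on a log axis, with circles for number 1 and squares for number 2 libraries, and blue for EV and orange for sgKAT6A. For NFKBIA the circles lie at 18.7 and 23.6 TPM and the squares at 78.0 and 98.0 TPM, whereas the 4 RELA points lie between 36.5 and 38.1 TPM.

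Among the activating subunits, RELA (chromosome 11, 65653596 to 65663094, minus strand, GENCODE 29 on GRCh38) stood at 38.1 and 36.5 TPM in EV versus 37.6 and 37.3 TPM in sgKAT6A. The whole range of RELA over the 4 libraries was 0.061 on the log2(TPM + 1) scale, the smallest of the 10 genes. The difference between sgKAT6A and EV was 0.01 ± 0.11 (SE), with a 95% interval from -0.31 to 0.32 (adjusted p = 0.989 by limma). REL, which encodes the haematopoietic subunit c-Rel, stood at 2.94 and 4.70 TPM in EV versus 4.45 and 4.90 TPM in sgKAT6A. EV 1 was the low library for REL, and the groups overlapped (difference 0.26 ± 0.24 SE, adjusted p = 0.792 by limma).

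RELB (chromosome 19, 45001430 to 45038198, plus strand), encoding the activating subunit of the non-canonical pathway, varied between libraries where RELA did not. It stood at 5.80 and 28.9 TPM in EV versus 7.54 and 36.2 TPM in sgKAT6A, replicate 1 before replicate 2. The number 2 library was thus 4.98-fold higher in EV and 4.80-fold higher in sgKAT6A, while sgKAT6A was 1.30-fold and 1.25-fold above EV within numbers 1 and 2. The log2 difference between the groups was 0.32 ± 1.07 (SE), with a 95% interval from -2.66 to 3.30 (adjusted p = 0.932 by limma).

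Genes for precursor subunits also differed from each other. NFKB2 (chromosome 10, 102394110 to 102402529, plus strand) stood at 6.83 and 29.8 TPM in EV versus 9.93 and 40.3 TPM in sgKAT6A. Both number 2 libraries lay above both number 1 libraries, and the groups overlapped. The number 2 library was 4.36-fold higher in EV and 4.06-fold higher in sgKAT6A, and the group difference was 0.45 ± 0.98 (SE, adjusted p = 0.902 by limma). NFKB1 (chromosome 4, 102501329 to 102617302, plus strand), which yields the partner of RELA, stood at 19.2 and 28.6 TPM in EV versus 20.4 and 25.1 TPM in sgKAT6A. The number 2 library was 1.49-fold and 1.23-fold higher in EV and sgKAT6A. The group difference of NFKB1 was -0.05 ± 0.25 (SE, adjusted p = 0.957 by limma), and it was 0.01 when protein-coding genes alone were rescaled.

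TPM is scaled by transcript length, so the 5 subunits can be compared as shares of their summed TPM, a ratio inside each library that does not depend on library scaling. RELA made up 52.3% of the subunit transcripts in EV 1 and 47.1% in sgKAT6A 1, but 28.4% in EV 2 and 25.9% in sgKAT6A 2. NFKB2 and RELB together made up 17.3% and 21.9% in EV 1 and sgKAT6A 1, and 45.7% and 53.2% in EV 2 and sgKAT6A 2. The summed level of the 5 was 72.9 and 79.9 TPM in the number 1 libraries of EV and sgKAT6A and 129 and 144 TPM in the number 2 libraries. RELB stood at 0.152 of the RELA level in EV 1 and at 0.970 of it in sgKAT6A 2, with 0.2004 in sgKAT6A 1 and 0.792 in EV 2. NFKB2 and RELB, which encode partners, kept a ratio to each other between 1.03 and 1.32 in all 4 libraries.

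**Figure D2:**
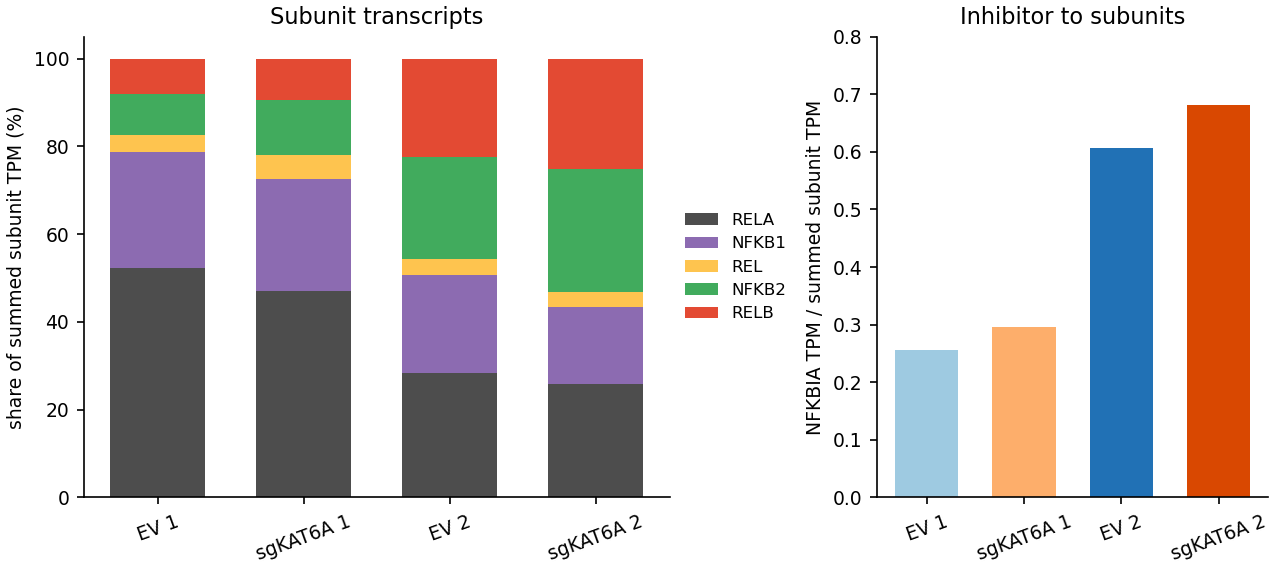
Left, share of each subunit gene in the summed TPM of the 5 subunit genes (percent) in each library. Right, NFKBIA TPM divided by that sum. NFKB2 and RELB take 17.3% to 21.9% in the number 1 libraries and 45.7% to 53.2% in the number 2 libraries, and the NFKBIA ratio is higher in the number 2 libraries.

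NFKBIA (chromosome 14, 35401511 to 35404749, minus strand) encodes IkB-alpha, the inhibitor that holds dimers in the cytoplasm and is resynthesised after activation. It stood at 18.7 and 78.0 TPM in EV versus 23.6 and 98.0 TPM in sgKAT6A. The ratio of the number 2 to the number 1 library was 4.18 in EV and 4.15 in sgKAT6A, and sgKAT6A was 1.27-fold and 1.26-fold above EV within numbers 1 and 2. The group difference was 0.33 ± 1.01 (SE), with a 95% interval from -2.49 to 3.14 (adjusted p = 0.930 by limma). Divided by the summed subunits, NFKBIA stood at 0.256 and 0.607 in EV and at 0.296 and 0.682 in sgKAT6A. The mean of that ratio was 0.432 ± 0.248 in EV and 0.489 ± 0.273 in sgKAT6A (SD, n = 2 each), and an exact two-sided permutation test on its log2 value gave p = 0.667, where 2 libraries against 2 cannot give less than 0.333. Without EV 1 the log2 difference of the ratio was -0.43, and without EV 2 it was 0.81.

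TNFAIP3 (chromosome 6, 137867188 to 137883312, plus strand), which encodes the ubiquitin-editing brake on IKK activation, had the widest range of the 10 genes on the log2(TPM + 1) scale. It stood at 6.89 and 49.7 TPM in EV versus 9.87 and 60.0 TPM in sgKAT6A. The number 2 library was 7.21-fold higher in EV and 6.08-fold higher in sgKAT6A, and the group difference was 0.36 ± 1.30 (SE, adjusted p = 0.936 by limma). Among 82 genes of the pathway lists below, those with the smallest Euclidean distance to TNFAIP3, over the centred log2(TPM + 1) values of 4 libraries, were CCL3, IL1B, ICAM1, CXCL8 and CD40, with distances from 0.32 to 0.43. Of these, CXCL8, encoding the neutrophil chemoattractant interleukin-8, stood at 37.3 and 245 TPM in EV versus 55.9 and 221 TPM in sgKAT6A.

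TNFAIP2 (chromosome 14, 103123442 to 103137439, plus strand), a gene induced by tumour necrosis factor in myeloid and endothelial cells, stood at 14.7 and 44.4 TPM in EV versus 28.2 and 61.0 TPM in sgKAT6A. Its difference between the groups was the largest of the 10 with 1 TPM added (with 0.1 TPM added, BIRC3 had 1.04 and TNFAIP2 0.70), at 0.67 ± 0.68 (SE), with a 95% interval from -1.20 to 2.55 (adjusted p = 0.800 by limma). Within numbers 1 and 2, sgKAT6A was 1.92-fold and 1.37-fold above EV. Without EV 1 the TNFAIP2 difference was -0.095, and without EV 2 it was 1.44.

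BIRC3 and TRAF1 were the least abundant members. BIRC3 (chromosome 11, 102317450 to 102339403, plus strand), which encodes a ubiquitin ligase that protects cells from death by tumour necrosis factor, stood at 0.065 and 1.03 TPM in EV versus 0.172 and 2.77 TPM in sgKAT6A. The number 2 library was 15.9-fold higher in EV and 16.1-fold higher in sgKAT6A, ratios of low values whose precision is unknown. Within numbers 1 and 2, sgKAT6A was 2.67-fold and 2.70-fold above EV for BIRC3, again ratios of low values. TRAF1 (chromosome 9, 120902393 to 120929173, minus strand), encoding an adaptor of tumour necrosis factor receptors that binds BIRC3 protein, stood at 0.248 and 1.77 TPM in EV versus 0.423 and 2.85 TPM in sgKAT6A. The number 2 library was 7.12-fold and 6.74-fold higher. The group differences were 0.52 ± 0.74 for BIRC3 and 0.33 ± 0.70 for TRAF1 (SE, adjusted p = 0.854 and 0.899 by limma). Adding 1 TPM before the logarithm compresses both, and with 0.1 TPM added they were 1.04 and 0.62.

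By mean level over the 4 libraries, NFKBIA was highest at 54.6 TPM, followed by RELA at 37.4, TNFAIP2 at 37.1, TNFAIP3 at 31.6, NFKB1 at 23.3, NFKB2 at 21.7 and RELB at 19.6 TPM. REL followed at 4.25, TRAF1 at 1.32 and BIRC3 at 1.01 TPM. The ranges over libraries of the genes from NFKBIA to RELB overlapped, except that all RELA values exceeded all values of NFKB1 and RELB. Each REL value lay below each value of those genes and above each value of TRAF1 and BIRC3. The order depended on the library. RELA was the highest of the 10 in both number 1 libraries and NFKBIA in both number 2 libraries.

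**Figure D3:**
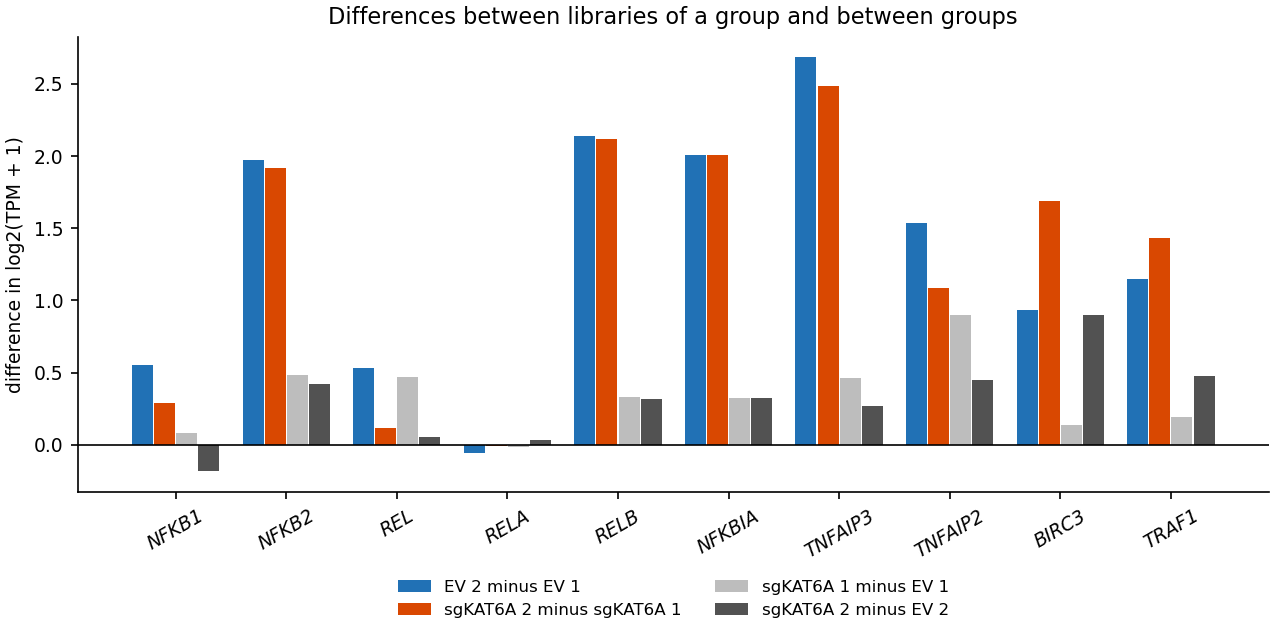
Differences in log2(TPM + 1) for each gene, between libraries of the same group (blue for EV, orange for sgKAT6A) and between sgKAT6A and EV libraries of the same number (light grey for number 1, dark grey for number 2). For NFKB2, RELB, NFKBIA and TNFAIP3 the coloured bars lie between 1.92 and 2.68 and the grey bars between 0.27 and 0.48.

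Set side by side, 9 of the 10 members had both number 2 libraries above both number 1 libraries, against 27.6% of all genes tested, and RELA was the exception. The median difference between the libraries of a group was 1.34 in EV and 1.56 in sgKAT6A over the 10 genes, against 0.07 and -0.03 over all genes tested. For the comparison of sgKAT6A with EV, limma called 0 of 12603 genes (0.0%) at an adjusted p under 0.05, and 459 genes had an unadjusted p under 0.05. None of the 10 members was among these, and their smallest unadjusted p was 0.345, for REL. None had groups that did not overlap, against 14.4% of genes tested with both sgKAT6A libraries above both EV libraries and 23.2% with both below. The median difference of the members was 0.33 on the log2(TPM + 1) scale, against -0.02 over all genes tested, and 9 of 10 were above 0. Within both replicate numbers sgKAT6A was above EV for 8 of 10 members, against 32.0% of genes tested, the exceptions being NFKB1 and RELA. That count matches libraries by a number that the labels do not describe as a pairing. By the same matching, the median difference of the members was 0.33 within number 1 and 0.32 within number 2. The sign of the median changed with the library left out. Leaving out 1 library sets a single number against a group with both, so differences between numbers enter the result. The median of the members was -0.29 without EV 1, -0.36 without sgKAT6A 2, 1.16 without EV 2 and 1.27 without sgKAT6A 1.

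The pathway around the members was followed in 4 further lists. The shares over all genes tested, to be set beside their counts, were 14.4% higher and 23.2% lower in sgKAT6A without overlap. For over 2-fold higher in the number 2 library of both groups, the share was 3.12%. Of 15 other IkB family and feedback inhibitor genes tested, 0 passed the test, 3 were higher and 3 lower in sgKAT6A without overlap, and 5 were over 2-fold higher in the number 2 library of both groups. Those 5 were NFKBIE, NFKBIZ, BCL3, ZC3H12A and IER3. IER3, an early response gene linked to survival, stood at 17.2 and 77.8 TPM in EV versus 33.2 and 124 TPM in sgKAT6A. TNIP1, encoding a binding partner of the TNFAIP3 protein, was at 43.1 and 82.2 TPM against 47.4 and 96.0 TPM. By contrast NFKBIB, which encodes the inhibitor IkB-beta, stood at 44.5 and 41.8 TPM in EV versus 38.7 and 37.5 TPM in sgKAT6A. NFKBIB thus varied little between libraries of a group, and both sgKAT6A libraries were the lower (difference -0.17 ± 0.11 SE, adjusted p = 0.784 by limma). NFKBID, an atypical nuclear IkB gene, stood at 6.15 and 5.70 TPM in EV versus 7.34 and 8.86 TPM in sgKAT6A. COMMD1 (lower) and PDLIM2 (higher) were the next of this list by unadjusted p without overlap.

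Genes of the IKK complex and its adaptors had the smallest medians of the 5 lists. Of 26 tested, 0 were over 2-fold higher in the number 2 library of both groups and 0 passed the test, with 7 higher and 2 lower in sgKAT6A without overlap. The medians between libraries of a group were 0.16 in EV and 0.03 in sgKAT6A, and the median group difference was 0.07. IKBKB, the catalytic subunit of canonical signalling, stood at 44.6 and 44.2 TPM in EV versus 49.7 and 48.6 TPM in sgKAT6A. MAP3K14, the kinase of the non-canonical pathway, stood at 2.85 and 3.53 TPM in EV versus 4.67 and 4.61 TPM in sgKAT6A (difference 0.43 ± 0.17 SE, adjusted p = 0.784 by limma). TRAF2, an adaptor that targets the MAP3K14 protein for degradation, was at 18.1 and 20.6 TPM against 16.04 and 15.97 TPM. MAP3K14 and TRAF2 had groups that did not overlap, in opposite directions, and a link between them was not tested. For TRAF3 and BIRC2, of the same list, the groups overlapped. CARD9 and TBK1 were also higher in sgKAT6A without overlap, and IRAK1 and SHARPIN were the most abundant of the list.

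Of 18 ligand and receptor genes tested, 0 passed, 2 were higher and 1 lower in sgKAT6A without overlap, and 6 were over 2-fold higher in the number 2 library of both groups. Those 6 were LTB, IL1B, CD40, TLR8, CD14 and LY96, and CD14 is also counted among the monocyte markers below. The median group difference was 0.41. LTB, a ligand of the non-canonical pathway, stood at 22.0 and 112 TPM in EV versus 18.1 and 82.7 TPM in sgKAT6A, with sgKAT6A the lower within each number. TNF stood at 40.0 and 80.1 TPM in EV versus 39.4 and 45.3 TPM in sgKAT6A, so that EV 2 alone stood high. TNFSF14, another ligand of the receptor LTBR, stood at 4.11 and 7.10 TPM in EV versus 10.1 and 10.7 TPM in sgKAT6A (difference 0.83 ± 0.27 SE, adjusted p = 0.784 by limma). LTBR itself was at 45.3 and 48.0 TPM against 42.3 and 40.8 TPM, and TLR1 was the second gene higher without overlap. TNFRSF1B and TNFRSF1A, the receptors of tumour necrosis factor, were the most abundant, with TNFRSF1B at 81.1 and 138 TPM in EV versus 101 and 194 TPM in sgKAT6A. LTB, TNF and the IKK gene IKBKB were described after their values had been seen.

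Of 24 other NF-kB target genes tested, 0 passed, 5 were higher and 0 lower in sgKAT6A without overlap, and 9 were over 2-fold higher in the number 2 library of both groups. BIRC2 is counted both in this list and among the IKK complex and adaptors. The median group difference was 0.20. The 9 were ICAM1, BCL2A1, SOD2, CXCL8, CCL2, CCL3, CCL4, CCL20 and EBI3. ICAM1, a leukocyte adhesion ligand, stood at 3.41 and 22.2 TPM in EV versus 6.29 and 33.7 TPM in sgKAT6A. SOD2, the mitochondrial superoxide dismutase, was at 78.0 and 178 TPM against 71.6 and 194 TPM, a group difference of 0.00 ± 0.66 (SE). IRF1, GADD45B, IER2 and CD44, in contrast, did not overlap, with each sgKAT6A library above each EV library. GADD45B, a stress-response gene, stood at 13.2 and 13.9 TPM in EV versus 17.5 and 21.7 TPM in sgKAT6A (difference 0.49 ± 0.16 SE, adjusted p = 0.784 by limma).

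**Figure D4:**
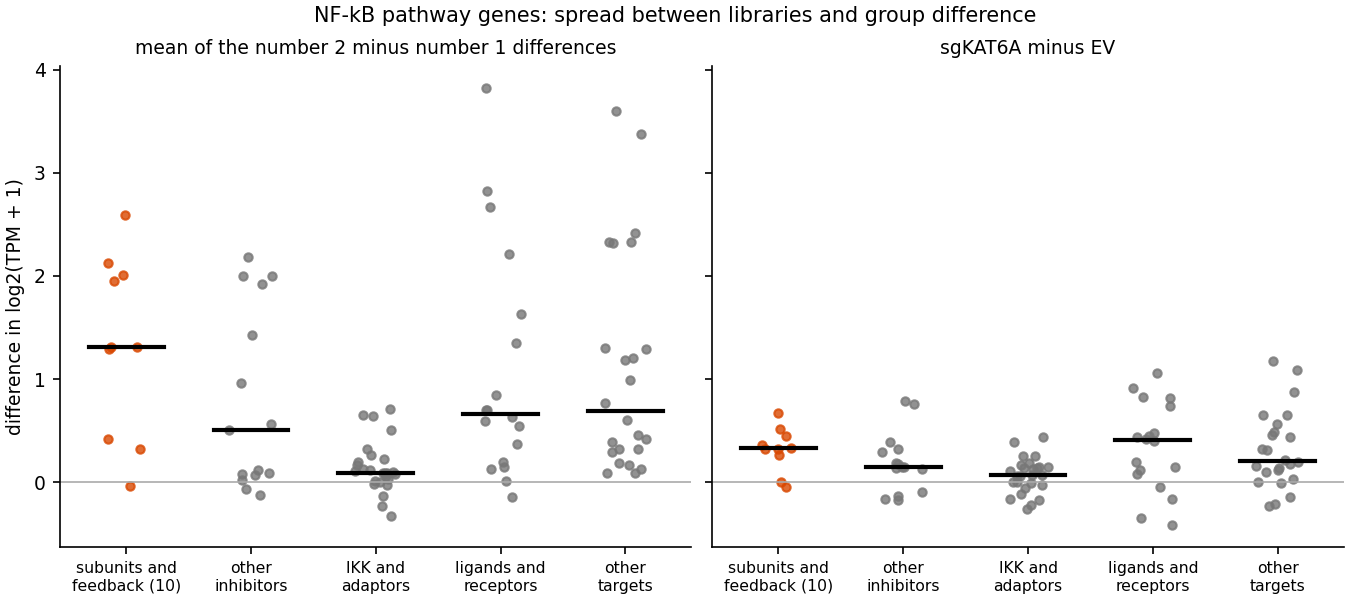
Each point is a gene tested, by list. The vertical axis is, on the left, the mean of the 2 differences in log2(TPM + 1) between number 2 and number 1 libraries of a group and, on the right, the difference between sgKAT6A and EV, and black bars are medians. The members (orange) spread up to above 2 on the left, and on the right they lie between -0.05 and 0.67.

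Most monocyte markers differed in the same directions as most of the members. Of 15 monocyte genes tested, 11 had both number 2 libraries above both number 1 libraries, against 27.6% of all genes tested. In both groups, 6 were over 2-fold higher in the number 2 library, against 3.12%. All 15 were above 0 in the group difference, against 5979 of 12603 genes, and 3 were higher without overlap, against 14.4%. VCAN alone had both number 2 libraries the lower, at 18.2 and 15.8 TPM in EV versus 26.8 and 16.2 TPM in sgKAT6A. CST3 was slightly lower in number 2 of each group, at 958 and 869 TPM in EV versus 1472 and 1455 TPM in sgKAT6A. The median differences of the 15 monocyte genes were 0.78 from EV 1 to EV 2, 0.96 from sgKAT6A 1 to sgKAT6A 2 and 0.68 between the groups. The summed level of the monocyte list, in which LYZ predominates, was 8623 and 10616 TPM in EV and 13665 and 13547 TPM in sgKAT6A. LYZ, encoding lysozyme, stood at 7060 and 8068 TPM in EV versus 10975 and 9500 TPM in sgKAT6A. ITGAM, the gene of the integrin CD11b, stood at 3.74 and 21.5 TPM in EV versus 12.3 and 52.1 TPM in sgKAT6A. CD14, which helps sense lipopolysaccharide, stood at 1.08 and 29.3 TPM against 3.04 and 54.3 TPM, and CD86 at 8.03 and 14.5 TPM against 17.6 and 29.5 TPM. The macrophage gene CD163 was at 0.121 TPM or less in every library. The part of monocytic maturation in the levels of the NF-kB genes was not tested, and in bulk RNA more cells with a transcript and more of it per cell cannot be told apart.

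Presence of a kB match in the promoter window was set beside these differences over the tested genes with a window. The 1533 genes with a match had a median difference of 0.08 from EV 1 to EV 2 and 0.0044 from sgKAT6A 1 to sgKAT6A 2, and the 7511 without had 0.06 and -0.04. Of genes with a match, 3.33% were over 2-fold higher in the number 2 library of both groups, against 2.28% without. Among the lists, 7 of 12 other inhibitor genes, 5 of 23 IKK and adaptor genes, 3 of 15 ligand and receptor genes and 8 of 21 other target genes with a window held a match. Of the 6 members over 2-fold higher in number 2 of both groups, NFKB2, NFKBIA and TNFAIP3 held a match and TNFAIP2 and TRAF1 did not. RELB had no window. Of the remaining members, NFKB1, REL and BIRC3 held a match and RELA did not. BIRC3 is placed there by the added 1 TPM, with a difference of 0.93 in EV and 1.69 in sgKAT6A. In TPM its number 2 library was 15.9-fold higher in EV and 16.1-fold higher in sgKAT6A, ratios of low values.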

How the data were processed

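Per the labels' protocols, a column kit was used for total RNA and a company built the libraries. The authors deposited 1 table of TPM by gene symbol. The submitters' processing notes name Salmon and hg38, and its version, the transcript annotation and any filters were not given in the sources used here. Groups and replicate numbers came from the sample titles, 2 libraries per group.

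Values were used as deposited, as log2(TPM + 1), for genes averaging 1 TPM or more. The group test was that of limma 3.58.1 (R 4.3.3), with empirical Bayes variances, a mean-variance trend and no block (2 residual degrees of freedom). Tests were two-sided with Benjamini-Hochberg adjustment over all 12603 genes and a threshold of 0.05. The fit was checked on simulated data. No set test was run.

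All 10 members are named. From each pathway list were taken up to 4 genes with the smallest unadjusted p without overlap and 2 with the highest mean. Members and lists were chosen with earlier results of these data known. Coordinates of genes come from GENCODE 29 and promoter sequences from RefSeq, both on GRCh38. Figures were drawn with matplotlib 3.10.9. Alternatives were other pseudocounts, filters, scalings and variance models, leaving out each library, and a block for the replicate number.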

Additional observations from a re-analysis of the deposited data

How the results depend on the processing

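No member passed the threshold under any of the alternatives run, and the count of members called was 0 in each. Of 87 member values under alternatives that keep all libraries, 1 changed direction, NFKB1 at 0.0085 with protein-coding genes only. The filters, the variance model and the block cannot change a log2 difference here. Only the values under other pseudocounts and scalings could therefore have changed direction. With 1 library left out, 17 of 40 changed direction. Each of these fits sets a single replicate number against a group with both, so differences between numbers enter it. The ranges over the left-out libraries were -0.33 to 0.23 for NFKB1, -0.54 to 1.44 for NFKB2, -0.0062 to 0.53 for REL, -0.025 to 0.036 for RELA, -0.75 to 1.39 for RELB, -0.68 to 1.33 for NFKBIA, -0.98 to 1.71 for TNFAIP3, -0.095 to 1.44 for TNFAIP2, -0.33 to 1.36 for BIRC3 and -0.39 to 1.05 for TRAF1. The median of the members ran from -0.36 to 1.27, and the log2 difference of NFKBIA over the summed subunits from -0.43 to 0.81. With a single library in a group, its spread is assumed to equal that of the other group. With the replicate number as a block, limma called 15 genes in place of 0, no member among them (adjusted p from 0.177 for TNFAIP2 to 0.980 for RELA), although nothing in the labels pairs equal numbers. The differences between the libraries of EV and of sgKAT6A correlated across 12603 genes at r = 0.455, genes not being independent replicates. No scaling moved the median of all genes by more than 0.046. TPM keeps no depth, so the precision of BIRC3 and TRAF1 is unknown.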
